A study of Arabidopsis thaliana with 9 samples.

Results

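The GDSL esterase and lipase family was followed gene by gene in roots of Arabidopsis thaliana, wild type and mutant for MYB36. The family was taken as a list of 60 loci annotated as GDSL-type esterases or lipases, with the genes linked to suberin left out. A gene was measured where the array annotation paired a probe set, a group of probes read as 1 value, with that gene alone, and the brightest such probe set over all 9 arrays was used. This gave 54 of the 60 genes, among 16411 genes with a probe set of their own. AT1G29670, AT2G19060 and AT3G26430 were paired only with probe sets that also name a second gene, AT1G54790, FXG1 and LTL1 were matched to no probe set here, and these 6 were not analysed here. AT4G26790 had 2 probe sets and each of the other 53 genes had 1.

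GDSL enzymes are hydrolases named for a short sequence motif around their catalytic serine, and they cleave ester bonds in lipids and other small substrates. Plants carry large families of them, many secreted to the cell wall, and individual members are known to assemble or trim the lipid polyesters cutin and suberin or to break down fatty acids in seeds. MYB36 is a transcription factor known for switching on the genes that build the Casparian strip, a lignin band sealing the walls of root endodermis cells. For most of the 54 genes no individual function is given here, and they are named by locus.

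RNA came from roots of 2-week-old plants grown on agar plates of MGRL nutrient medium with sucrose, and was hybridised to Affymetrix arrays. Wild type Col-0, mutant myb36-1 and mutant myb36-2 had 3 arrays each. The labels name the lines, the sample titles add a code for each mutant line, and the kind of mutation is not spelled out in them. Whether the replicate arrays stem from separate plantings is likewise not stated, and p-values measure only the spread between these samples, which may be technical. A whole root mixes all its cell types, so fewer cells of a type and less RNA per cell cannot be told apart.

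The deposited values are RMA values on the log2 scale, on which a difference of 1 is a 2-fold difference. The median of all deposited values was 4.61 in Col-0 and 4.60 in myb36-1 but 4.86 in myb36-2, and array scale and line cannot be told apart for myb36-2. Counts of calls and the calls in myb36-2 are therefore given as deposited and on a common scale, after quantile normalisation of the tested probe sets over all 9 arrays, and other values are as deposited unless stated. Over all 31325 tested probe sets the median change in myb36-2 was 0.16 as deposited and -0.01 on the common scale. MYB36 itself was not named on the array, so the lines could not be checked against its transcript. Of 13 listed Casparian strip genes 5 were measured, and 3 fell in myb36-1 and 4 in myb36-2 on either scale. The root hair markers EXPA7, at 6.64 to 6.89, and EXPA18, at 7.61 to 8.07, were read on every array, as were the leaf markers RCA, at 6.31 to 6.99, and LHCB4.1, at 6.46 to 7.11. A gene was called changed when its limma p-value, adjusted by the Benjamini-Hochberg method over all tested probe sets, was under 0.05.

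Of the family, 1 gene rose in both mutants, AT3G50400. Its log2 values on replicates 1, 2 and 3 were 6.24, 6.17 and 5.86 in Col-0, 6.72, 6.83 and 6.68 in myb36-1, and 6.70, 6.70 and 6.89 in myb36-2. All 6 mutant arrays lay above all 3 wild-type arrays, and the mutant lines overlapped each other. The change was 0.65 ± 0.11 (SE, n = 3 arrays per line) in myb36-1, a 1.57-fold level, with a limma adjusted p of 0.0488. In myb36-2 it was 0.67 ± 0.11, a 1.59-fold level, with a limma adjusted p of 0.0053. The direct difference between the mutants was -0.02 ± 0.11, with a 95% interval from -0.27 to 0.24. On the common scale the changes were 0.67 ± 0.11 and 0.52 ± 0.11, and both passed (limma adjusted p = 0.0387 and 0.0194). The myb36-1 call was lost whichever of the 9 arrays was left out, with adjusted p from 0.0728 to 0.167, while the myb36-2 call held in all 9 omissions as deposited and in 8 on the common scale, where leaving out myb36-2 replicate 3 gave 0.0605.

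In myb36-1 against Col-0, AT3G50400 was the only call among the 54 genes, which is 1.85% of them. That compares with 0.495% of all tested probe sets as deposited and 0.472% on the common scale. At an unadjusted p under 0.05 there were 8 genes in this comparison as deposited, or 14.8%, against 11% of all tested probe sets. The same single gene made up the calls in both mutants, against 0.418% of all tested probe sets as deposited and 0.415% on the common scale. As deposited 6 members, or 11.1%, had all 6 mutant arrays above Col-0, against 6.36% of all tested probe sets. These were AT1G28600, AT2G19010, AT2G19050, AT3G27950, AT3G48460 and AT3G50400. AT1G28570 alone, or 1.85%, had all 6 below, against 2.11%. On the common scale AT3G50400 was the only family member with all 6 mutant arrays above Col-0, where 4.21% of all tested probe sets had that order. AT1G28610 and AT1G29660 were then the 2 with all 6 below, where 4.59% did.

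**Figure D1:**
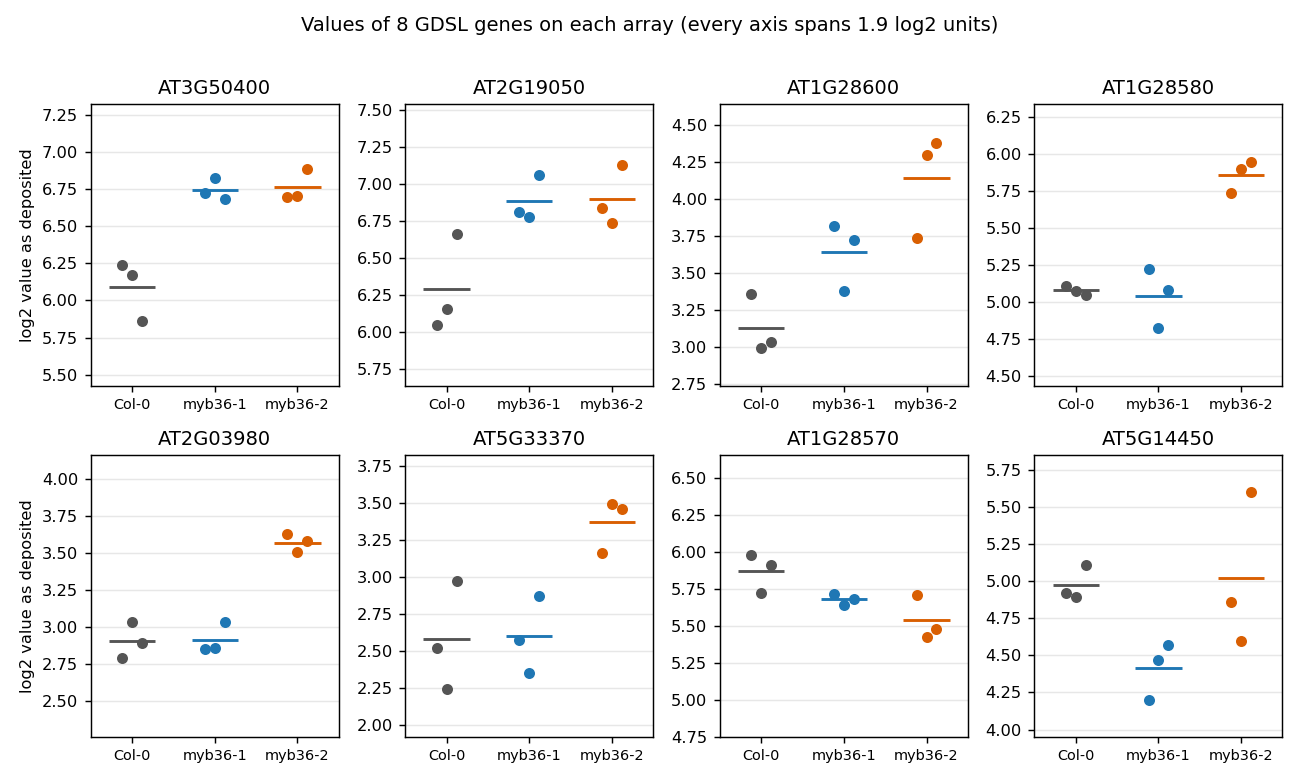
Log2 values as deposited (vertical axis) of 8 GDSL genes on each array, with points for the 3 arrays of Col-0, myb36-1 and myb36-2 and a bar at each line's mean; the panels have their own centres but equal spans. AT3G50400 lies higher in both mutants, AT1G28580, AT2G03980 and AT5G33370 lie higher in myb36-2 than in the other lines, and AT5G14450 lies lower in myb36-1 than in Col-0.

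Several other genes ran in the same direction in both mutants without a call in myb36-1. AT2G19050 read 6.05, 6.15 and 6.66 in Col-0, 6.81, 6.77 and 7.06 in myb36-1, and 6.83, 6.73 and 7.12 in myb36-2. Every mutant array was above every wild-type array, though Col-0 replicate 3 came close to the lowest of them. Its change was 0.60 ± 0.17 in myb36-1 (limma adjusted p = 0.237) and 0.61 ± 0.17 in myb36-2 (adjusted p = 0.0341), and the myb36-2 call was lost on the common scale, at 0.46 ± 0.17 (adjusted p = 0.126). Without Col-0 replicate 3 the myb36-2 adjusted p was 0.0121, and the call was lost without Col-0 replicate 1 or 2 or myb36-2 replicate 1 or 3, with adjusted p up to 0.104. AT3G27950 read 8.95, 8.60 and 8.99 in Col-0, 9.45, 9.36 and 9.11 in myb36-1, and 9.45, 9.01 and 9.59 in myb36-2. These arrays separated as well, again as deposited only. The changes of 0.46 ± 0.17 and 0.50 ± 0.17 did not pass the test (limma adjusted p = 0.367 and 0.0627).

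AT1G73610 showed a change of 0.52 ± 0.21 in myb36-1 and 0.42 ± 0.21 in myb36-2, and neither passed (limma adjusted p = 0.412 and 0.178); on the common scale they were 0.51 ± 0.20 and 0.16 ± 0.20. Its values were 2.72, 3.03 and 3.08 in Col-0, 3.79, 3.43 and 3.18 in myb36-1, and 3.0, 3.34 and 3.75 in myb36-2. The myb36-1 arrays were clear of Col-0, and the myb36-2 arrays were not. Over the family, 9 genes, or 16.7%, had all 3 myb36-1 arrays above all 3 Col-0 arrays as deposited, against 8.36% of all tested probe sets. In the other direction the count was 5 genes, or 9.26%, against 9.87%. After quantile normalisation the counts were 6 genes, or 11.1%, above Col-0 against 8.6%, and 4 genes, or 7.41%, below against 9.46%.

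Those 5 genes lower on every myb36-1 array were AT1G28570, AT1G28610, AT1G29660, AT1G56670 and AT5G14450. AT5G14450 had the lowest change of the family in myb36-1, at -0.56 ± 0.22, which did not pass (limma adjusted p = 0.406). It read 4.92, 4.90 and 5.11 in Col-0 and 4.20, 4.47 and 4.57 in myb36-1. In myb36-2 it read 4.86, 4.60 and 5.60, an uneven set that straddled the wild type, and the change there was 0.05 ± 0.22. AT1G56670 read 6.38, 6.49 and 6.16 in Col-0, 5.90, 6.09 and 6.08 in myb36-1, and 6.56, 6.26 and 6.54 in myb36-2. Its change in myb36-1 was -0.32 ± 0.12 (limma adjusted p = 0.368).

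The 54 changes in myb36-1 as deposited thus ran from -0.56 for AT5G14450 to 0.65 for AT3G50400, with a median of 0.05 against -0.01 over all tested probe sets. For 52 of the 54 genes the 95% interval of the myb36-1 change lay within 1 log2 unit of 0, and for 34 within 0.5. The 3 arrays per line therefore bounded most changes of array value in this line to less than 2-fold, without showing that the smaller ones are absent. For 36 of the 54 genes the mean log2 value was below 4 and no detection call was used. There the bound holds for the array value, and not necessarily for the transcript.

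In myb36-2, 17 of the 54 genes were called as deposited, of which 16 rose and AT1G28570 fell. That is 31.5% of the family against 21.3% of all tested probe sets, of which 6036 rose and 633 fell. After quantile normalisation 7 genes were called, with 5 higher and 2 lower, which is 13.0% of the family against 10.1% of all tested probe sets, of which 1461 rose and 1688 fell. The 5 that rose on either scale were AT1G28580, AT1G28600, AT2G03980, AT3G50400 and AT4G18970. AT1G28570 fell on either scale, and AT1G28670, the gene named ARAB-1 in the reference table, fell on the common scale alone. Called as deposited only were AT1G06990, AT1G20130, AT1G23500, AT2G04570, AT2G19010, AT2G19050, AT2G24560, AT2G27360, AT3G14820, AT4G16230 and AT5G33370. Leaving out Col-0 replicate 1 brought the count as deposited to 9 and leaving out myb36-2 replicate 3 brought it to 10, and on the common scale it ran from 0, without myb36-2 replicate 3, to 6.

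**Figure D2:**
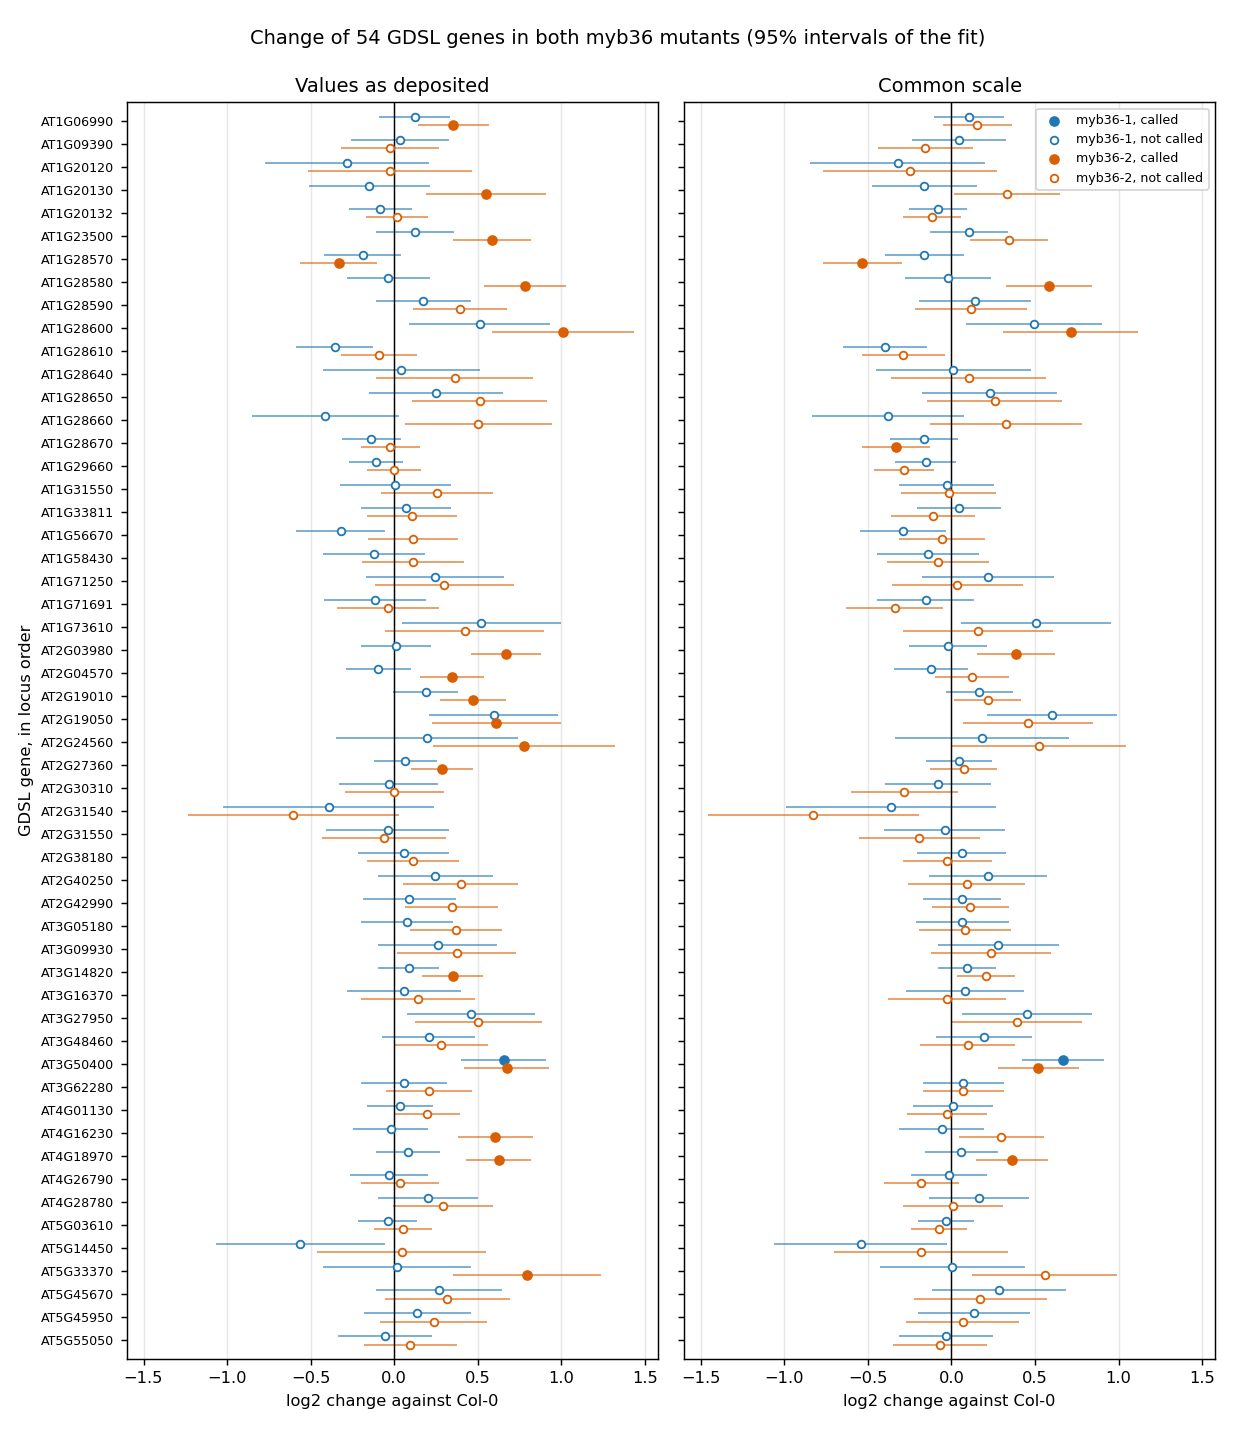
Log2 change against Col-0 (horizontal axis) of the 54 GDSL genes in locus order, as deposited on the left and on the common scale on the right, with 95% intervals of the fit; filled points passed the adjusted threshold. In myb36-1 only AT3G50400 is filled, and in myb36-2 the 17 filled points on the left become 7 on the right as the points move left.

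AT1G28600 had the largest rise of the family in myb36-2. It read 3.36, 3.0 and 3.04 in Col-0, 3.82, 3.38 and 3.73 in myb36-1, and 3.74, 4.30 and 4.38 in myb36-2. The wild-type arrays lay below all 6 mutant arrays, and Col-0 replicate 1 came close to myb36-1 replicate 2. The change in myb36-2 was 1.01 ± 0.19, a 2.01-fold level (limma adjusted p = 0.00797), and on the common scale 0.71 ± 0.18 (adjusted p = 0.0384), where the call held in 4 of 9 omissions. In myb36-1 it was 0.51 ± 0.19 (adjusted p = 0.368), and the difference between the mutants, -0.50 ± 0.19, did not pass (adjusted p = 0.101). AT2G24560 showed a wide spread, with 2.50, 2.64 and 2.93 in Col-0, 2.65, 2.58 and 3.44 in myb36-1, and 3.13, 3.75 and 3.52 in myb36-2. Its rise of 0.78 ± 0.24 in myb36-2 passed narrowly as deposited (limma adjusted p = 0.0493), held in 2 of 9 omissions, and did not pass on the common scale (0.52 ± 0.23, adjusted p = 0.183).

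AT2G03980 and AT4G18970 moved in myb36-2 with little spread. AT2G03980 read 2.79, 3.03 and 2.89 in Col-0, 2.85, 2.86 and 3.04 in myb36-1, and 3.63, 3.51 and 3.58 in myb36-2. The first 2 lines overlapped and the third stood apart, with a change of 0.67 ± 0.09 (limma adjusted p = 0.00261), against 0.01 ± 0.09 in myb36-1. AT4G18970 read 2.75, 2.83 and 2.83 in Col-0, 2.80, 2.97 and 2.89 in myb36-1, and 3.55, 3.41 and 3.33 in myb36-2. Its change in myb36-2 was 0.62 ± 0.09 (limma adjusted p = 0.00245). Both calls held in all 9 omissions as deposited. On the common scale the changes were 0.39 ± 0.10 and 0.36 ± 0.10, with limma adjusted p of 0.0454 and 0.046, and they were lost in 9 and 8 of the 9 omissions. AT2G19050 and AT2G19010, with AT1G28600, AT2G03980, AT3G50400 and AT4G18970, were the 6 genes called for the mean of both mutants, all higher. They were 11.1% of the family against 5.32% of all tested probe sets, and each single omission left 1 to 3 of them. On the common scale AT3G50400 alone was called, against 3.2%. Its call in the mean held in all 9 omissions on either scale.

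A further 6 genes rose in myb36-2 as deposited, by 0.29 to 0.60, and none of them passed on the common scale. AT4G16230 rose by 0.60 ± 0.10 (limma adjusted p = 0.00496), from 3.16 to 3.37 in Col-0 and 3.14 to 3.30 in myb36-1 to 3.71 to 3.98 in myb36-2. AT1G23500 rose by 0.58 ± 0.10 (limma adjusted p = 0.00676), from 2.56 to 2.86 in Col-0 to 3.25 to 3.36 in myb36-2. Both held in all 9 omissions as deposited. AT1G06990, AT2G04570 and AT3G14820 rose by 0.35 each, with limma adjusted p of 0.029, 0.0229 and 0.0173, and AT2G27360 rose by 0.29 ± 0.08 (adjusted p = 0.0387). These calls held in 3, 6, 7 and 3 of 9 omissions. All 3 myb36-2 arrays lay above all 3 Col-0 arrays in each of these 6 genes as deposited, an order that 35.9% of all tested probe sets had. After quantile normalisation AT1G06990, AT1G23500 and AT3G14820 had that order, with 14.8% of all tested probe sets, and the changes of AT4G16230 and AT1G23500 were 0.30 ± 0.11 and 0.34 ± 0.10.

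The 2 members picked here for a role known elsewhere in the plant were read at low values. Roles known for other members are not covered here. AT5G33370, known for building cutin in flowers, read 2.52, 2.25 and 2.97 in Col-0, 2.57, 2.35 and 2.87 in myb36-1, and 3.16, 3.49 and 3.46 in myb36-2. The wild type and myb36-1 covered the same range, and the myb36-2 arrays lay above both. Its rise of 0.79 ± 0.20 in myb36-2 passed as deposited (limma adjusted p = 0.0226) and not on the common scale (0.56 ± 0.19, adjusted p = 0.098), and it was lost without Col-0 replicate 1 or 2 or myb36-2 replicate 2 or 3, with adjusted p up to 0.0694. AT3G48460, known for lowering fatty acids in seeds, read 2.62, 2.58 and 2.47 in Col-0, 2.87, 2.73 and 2.68 in myb36-1, and 3.12, 2.70 and 2.70 in myb36-2. Every mutant array was above the wild type, yet the changes of 0.20 ± 0.12 and 0.28 ± 0.12 did not pass (limma adjusted p = 0.602 and 0.129). Cutin genes from a list of 17 were not matched to a probe set of their own and were not analysed here.

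As deposited the median change in myb36-2 differed between ranges of level, without a steady order in the family. For 36 of the 54 genes the mean log2 value over the 9 arrays was below 4, and no detection call was used to say whether such a value stands above background. In that range the median change in myb36-2 was 0.34 for the family and 0.21 for all 11541 tested probe sets as deposited, and 0.10 and -0.01 on the common scale. There 13 of the 36 genes rose as deposited, against 21.9% of all tested probe sets in that range. After quantile normalisation 3 genes, or 8.33%, rose against 4.14%, and 1 gene, or 2.78%, fell against 4.78%. Between 4 and 6 the 7 family members had a median of 0.05 as deposited, and the 11 at 6 or above had 0.14. All tested probe sets in those ranges had 0.20 and 0.11. On the common scale these medians were -0.18 and -0.02 for the family, against -0.02 and -0.01. The part of array scale in these rises was not tested.

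**Figure D3:**
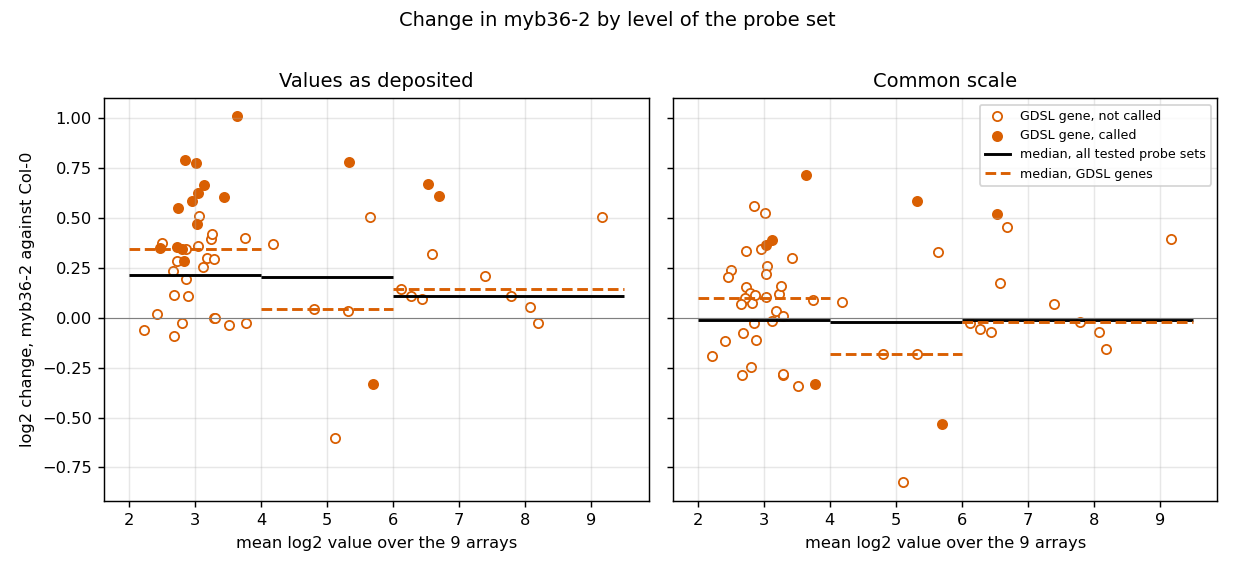
Log2 change in myb36-2 against Col-0 (vertical axis) and mean log2 value over the 9 arrays (horizontal axis) for the 54 GDSL genes, filled where called; lines give the median in 3 ranges of level, solid for all tested probe sets and dashed for the family. As deposited most filled points lie below a level of 4 and above 0, and 3 rises and 1 fall are called in that range on the common scale.

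The family is partly arrayed in neighbouring copies, and a run of 9 measured genes lies on chromosome 1, from AT1G28570 to AT1G28670. Gene order was taken from the reference table of assembly TAIR10.1, allowing up to 5 other genes between neighbours. Neighbouring copies can be alike in sequence, and how far the probes of one read RNA of another was not tested. In myb36-1 none of the 9 was called, and in myb36-2 as deposited AT1G28580 and AT1G28600 rose and AT1G28570 fell. On the common scale AT1G28670 was called as well. The share of all tested probe sets called in myb36-2 was 21.3% as deposited and 10.1% on the common scale.

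AT1G28570 read 5.98, 5.72 and 5.91 in Col-0, 5.71, 5.64 and 5.68 in myb36-1, and 5.71, 5.42 and 5.48 in myb36-2. All mutant arrays were lower than the wild type as deposited, although the nearest pairs almost met, and not on the common scale. It fell by 0.33 ± 0.10 on the log2 scale in myb36-2 as deposited (limma adjusted p = 0.0462) and fell by 0.53 ± 0.10 on the common scale (adjusted p = 0.0162), calls that held in 2 and 6 of 9 omissions. Next to it, AT1G28580 read 5.11, 5.07 and 5.05 in Col-0, 5.22, 4.82 and 5.08 in myb36-1, and 5.74, 5.90 and 5.94 in myb36-2. Wild type and myb36-1 were mixed and myb36-2 stood clear of both, with a change of 0.78 ± 0.11, a 1.72-fold level (limma adjusted p = 0.00267). It held on the common scale at 0.58 ± 0.11 (adjusted p = 0.0159) and there in 7 of 9 omissions.

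AT1G28660 read 5.63, 5.79 and 5.43 in Col-0, 5.63, 5.12 and 4.86 in myb36-1, and 6.15, 6.32 and 5.89 in myb36-2. The mutants lay on opposite sides of the wild type, at -0.41 ± 0.19 and 0.50 ± 0.19, neither of which passed (limma adjusted p = 0.484 and 0.0941). AT1G28610 read 3.01, 2.73 and 2.73 in Col-0, 2.58, 2.45 and 2.36 in myb36-1, and 2.80, 2.72 and 2.68 in myb36-2. It was lower on every myb36-1 array, at -0.36 ± 0.10, without passing (limma adjusted p = 0.232). AT1G28670 read 3.77, 3.85 and 3.88 in Col-0, 3.65, 3.80 and 3.63 in myb36-1, and 3.81, 3.77 and 3.84 in myb36-2. The lines overlapped as deposited, with a change of -0.02 ± 0.08 in myb36-2, while on the common scale it was -0.33 ± 0.09 (limma adjusted p = 0.048). That last call held in 1 of 9 omissions. AT1G28590, AT1G28640 and AT1G28650 had changes of 0.39 ± 0.13, 0.36 ± 0.21 and 0.51 ± 0.18 in myb36-2, and none passed (limma adjusted p = 0.0532, 0.239 and 0.0702). AT1G28650 read 2.52, 3.11 and 2.78 in Col-0, 3.15, 2.77 and 3.24 in myb36-1, and 3.49, 3.36 and 3.08 in myb36-2.

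**Figure D4:**
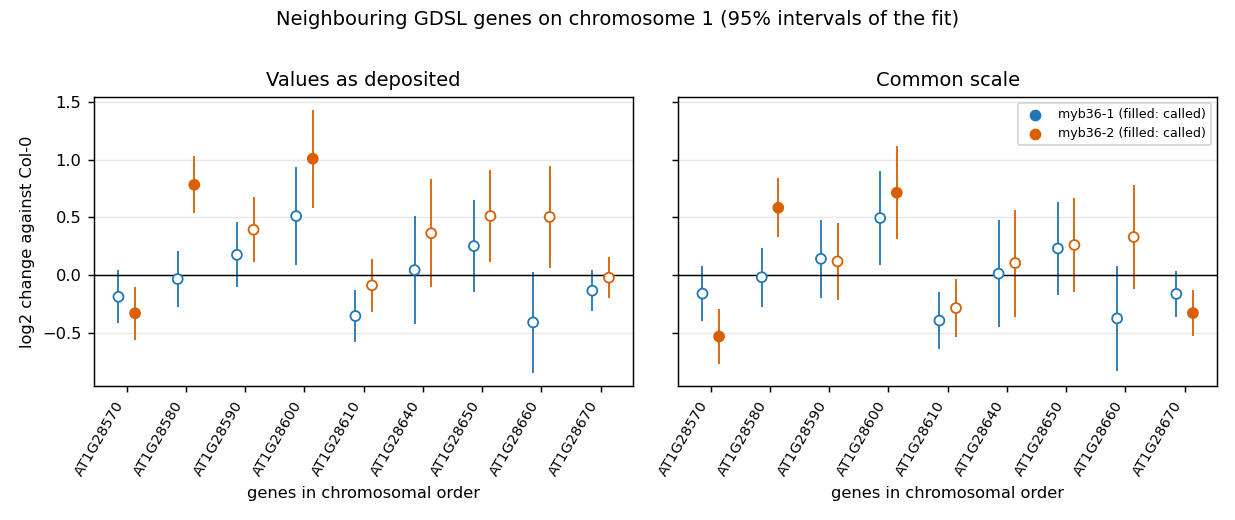
Log2 change against Col-0 (vertical axis) of the 9 neighbouring GDSL genes on chromosome 1 in chromosomal order, with 95% intervals of the fit, as deposited and on the common scale; filled points were called. AT1G28580 and AT1G28600 are called higher and AT1G28570 lower in myb36-2 on either scale, and AT1G28670 is called lower on the common scale.

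Smaller runs lie elsewhere on chromosomes 1 and 2. Of the neighbours AT1G20120, AT1G20130 and AT1G20132, AT1G20130 rose in myb36-2 as deposited by 0.55 ± 0.16 (limma adjusted p = 0.0385), a call that held in 2 of 9 omissions. It read 2.35, 2.58 and 2.88 in Col-0, 2.49, 2.38 and 2.50 in myb36-1, and 2.93, 3.44 and 3.09 in myb36-2. Its change of 0.33 ± 0.14 on the common scale did not pass (adjusted p = 0.162). AT1G20120 read 2.72, 3.40 and 2.61 in Col-0, 2.39, 2.51 and 2.98 in myb36-1, and 3.01, 2.92 and 2.72 in myb36-2, with full overlap. AT1G20132 changed little, at -0.08 ± 0.08 and 0.02 ± 0.08. AT2G19010, which lies close to AT2G19050, rose in myb36-2 as deposited by 0.47 ± 0.09 (limma adjusted p = 0.00759), and not on the common scale, at 0.22 ± 0.09 (adjusted p = 0.152).

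AT2G31540 and AT2G31550 are neighbours on chromosome 2. AT2G31540 had the lowest change of the family in myb36-2, at -0.60 ± 0.28 as deposited (limma adjusted p = 0.15) and -0.83 ± 0.28 on the common scale (adjusted p = 0.0925). It read 5.68, 5.88 and 4.79 in Col-0, 5.32, 5.17 and 4.68 in myb36-1, and 4.62, 4.79 and 5.12 in myb36-2. Col-0 replicate 3 lay well below the other wild-type arrays, and without it the myb36-2 change passed (limma adjusted p = 0.0235). AT2G31550 read 2.44, 2.06 and 2.27 in Col-0, 2.27, 2.17 and 2.21 in myb36-1, and 1.82, 2.50 and 2.27 in myb36-2, and the lines overlapped.

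The direct comparison of the mutants called 10 of the 54 genes as deposited, all lower in myb36-1 than in myb36-2, which is 18.5% against 15.4% of all tested probe sets. The count was 6 when myb36-1 replicate 1 was left out and 5 when myb36-1 replicate 2 was. On the common scale AT1G28580 alone was called, which is 1.85% against 4.15%, at -0.60 ± 0.11 (limma adjusted p = 0.024), a call lost without replicate 2 or 3 of either mutant. As deposited, AT1G28660 differed the most, at -0.92 ± 0.19 (adjusted p = 0.0171), followed by AT1G28580 at -0.82 ± 0.11 and AT5G33370 at -0.77 ± 0.20. For AT1G28580, AT2G03980, AT2G04570, AT4G16230 and AT4G18970 the call held in all 9 omissions as deposited. The highest differences in the other direction were 0.21 ± 0.28 for AT2G31540, 0.14 ± 0.10 for AT1G28570 and 0.10 ± 0.21 for AT1G73610, none of which passed. AT1G09390, at 0.06 ± 0.13, read 8.10, 8.39 and 8.09 in Col-0, 8.26, 8.22 and 8.19 in myb36-1, and 8.44, 7.98 and 8.07 in myb36-2, with full overlap of the lines.

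The remaining members were not called on either scale, and their values are given as deposited unless stated. AT5G03610 had a narrow bound around 0: it changed by -0.04 in myb36-1, with a 95% interval from -0.21 to 0.13, and by 0.05 in myb36-2, from -0.12 to 0.23. AT2G38180, AT3G16370, AT3G62280, AT5G45670 and AT5G55050 had changes of -0.06 to 0.27 in myb36-1 and 0.10 to 0.32 in myb36-2, without a call. AT1G71691 read 3.29, 3.59 and 3.82 in Col-0, 3.43, 3.36 and 3.57 in myb36-1, and 3.43, 3.50 and 3.66 in myb36-2, and its changes of -0.12 ± 0.14 and -0.04 ± 0.14 did not pass. AT2G40250, AT2G42990 and AT3G05180 had changes of 0.40, 0.34 and 0.37 in myb36-2 as deposited, without a call (limma adjusted p = 0.0921, 0.0758 and 0.0584), and 0.09, 0.11 and 0.08 on the common scale. AT3G09930 changed by 0.26 ± 0.16 and 0.37 ± 0.16, and AT4G28780 by 0.20 ± 0.13 and 0.29 ± 0.13. The gene named RXF26, AT1G58430, changed by -0.12 ± 0.14 in myb36-1 and 0.11 ± 0.14 in myb36-2. AT1G31550, AT1G33811, AT1G71250, AT2G30310, AT4G01130 and AT5G45950 had changes of -0.03 to 0.24 in myb36-1 and 0.00 to 0.30 in myb36-2, and AT1G29660 changed by -0.11 ± 0.07 in myb36-1. None of these passed. The probe sets of AT4G26790 both gave changes between -0.06 and 0.09 in either mutant as deposited, and neither was called.

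GDSL genes outside the 60, 44 of them on a separate list and 29 measured, showed no call in myb36-1 on either scale. In myb36-2 as deposited 4 of the 29 rose and 1 fell, with a median change of 0.15, and on the common scale AT1G54010 rose and AT5G45920 fell. AT1G54010 rose by 0.57 ± 0.09 as deposited and 0.44 ± 0.09 on the common scale (limma adjusted p = 0.0042 and 0.0201). Of the 15 suberin genes, FACT and AT2G48130 were measured, and FACT alone was called in myb36-2 as deposited, at 0.28 ± 0.08 (adjusted p = 0.0354), and not on the common scale. AT2G48130 changed by -0.15 ± 0.07 in myb36-2 as deposited, which did not pass (limma adjusted p = 0.164), and for the mean of both mutants it was called lower on the common scale, at -0.30 ± 0.06 (adjusted p = 0.0421).

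Markers of other cell types moved with myb36-2 in part. Both cortex markers rose there as deposited, AT1G62500 by 0.63 ± 0.12 and AT1G62510 by 0.78 ± 0.15 (limma adjusted p = 0.00917 and 0.00906). AT1G62510 also did on the common scale, at 0.58 (adjusted p = 0.0429). AT1G62500, at a low mean of 3.10 in Col-0, changed there by 0.33 ± 0.12, which did not pass (limma adjusted p = 0.116). The leaf marker RCA fell by 0.50 ± 0.11 as deposited and fell by 0.66 ± 0.11 on the common scale (limma adjusted p = 0.0149 and 0.00908), LHCB4.1 changed by 0.01 ± 0.15, and the root hair markers were not called. Of the 5 endodermis markers AT2G39430 was measured, a dirigent gene that fell by 3.07 ± 0.12 in myb36-1 and by 3.84 ± 0.12 in myb36-2 (limma adjusted p = 6.9e-06 and 2.67e-07). The same gene is among the Casparian strip genes counted above, and its fall is not a separate result. Of the 5 pollen markers 2 were measured. AT3G28750, at a low mean of 2.73 in Col-0, rose in myb36-2 by 0.67 ± 0.09 (limma adjusted p = 0.00272) and on the common scale by 0.42 ± 0.10 (adjusted p = 0.0366). The other, AT3G07850, had the higher level, with a mean of 8.43 in Col-0, and its change of -0.28 ± 0.19 in myb36-2 as deposited was not called (limma adjusted p = 0.316). The part of these cell types in the changes of the GDSL genes was not tested.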

How the data were processed

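The authors summarised each probe set to a deposited log2 value by RMA, as the submitters' processing notes name it. Its version, the genome build, and whether the 9 arrays were normalised jointly were not given in the sources. The 7083 probe sets with the lowest identifiers, none paired with a gene, were left out as control-like. Of 16722 probe sets paired with 1 gene, 16574 matched the reference table (TAIR10.1) by gene ID. The remaining 31325 probe sets were fitted with limma 3.58.1 in R 4.3.3, using all 9 arrays, a mean for each line and eBayes without trend, giving 4 two-sided contrasts, each adjusted by the Benjamini-Hochberg method over all tested probe sets. The fit was tested on simulated data. The members and gene lists were chosen with earlier results of these data known. Values on every array are given for members called in both mutants and the 8 largest rises and falls in the mean of both mutants. They are also given for the 5 largest differences between mutants in each direction, members picked for a known role and a few others. Alternatives were scaling, a filter on dim probe sets, moderation, which arrays entered the fit, replicate numbers as a block, all deposited probe sets and omission of each array, the last also on the common scale, which was added after seeing the data. The number of arrays limits the precision.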

Additional observations from a re-analysis of the deposited data

Results flagged for a closer look

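For 10 genes the direct test of myb36-1 against myb36-2 passed as deposited. Array scale and line cannot be told apart there, and 9 of the 10 no longer passed on the common scale. The log2 differences, myb36-1 minus myb36-2, were -0.92 for AT1G28660, -0.82 for AT1G28580, -0.77 for AT5G33370, -0.70 for AT1G20130, -0.66 for AT2G03980, -0.62 for AT4G16230, -0.54 for AT4G18970, -0.46 for AT1G23500, -0.44 for AT2G04570 and -0.43 for AT1G56670. The median difference over all tested probe sets was -0.17 as deposited. After quantile normalisation it was 0.01, and AT1G28580 alone passed. The part of array scale in the other 9 was not tested.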

How the results depend on the processing

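No called change of the genes given with full statistics turned direction in any alternative run. Over all alternatives 1333 values kept their side of the threshold, 136 no longer passed and 12 newly passed. Changes not called in the main run, which had no call to lose, are among the 1333. The tally therefore does not give the share of calls that held. Some alternatives used fewer arrays or probe sets, and the cause of the shifts below was not tested in any of them. In myb36-1, and so in both mutants, the 1 call went to 0 with the compared lines' arrays only, with all deposited probe sets and in every omission (0 to 0) on either scale. In myb36-2 the 17 calls were 7 on the common scale and with median centring, and 4 of 15 tested members among bright probe sets. Median centring called 13% of the family and 13% of all tested probe sets, and the bright run 26.7% against 20%. The myb36-2 count ran from 9 to 16 over omissions, or 0 to 6 on the common scale. For the mean of both mutants 6 calls became 1 on the common scale, with median centring and with all deposited probe sets. The mean had 3 calls with trend and robust moderation, or 5.56% against 5.44% of all tested probe sets. Among bright probe sets it had 3 of 15 tested members, or 20% against 6.94%. Omissions gave 1 to 3 on either scale. Between the mutants 10 calls became 1 on the common scale and 2 with median centring, the latter 3.7% against 5.5% of all tested probe sets. Among bright probe sets 3 of 15 tested members were called there, or 20% against 13.6%. Omissions left 5 to 10 calls between the mutants, or 0 to 2 on the common scale. Deviations of same-numbered arrays of different lines correlated at -0.19 to 0.08, and those of differently numbered arrays at -0.17 to 0.17. No shared effect of the replicate number was seen, which does not show whether same-numbered arrays were prepared together. With the replicate number as a block, calls were 0 in myb36-1, 15 in myb36-2, 0 in both, 2 in the mean and 9 between mutants. With the block on the common scale they were 0, 5, 0, 2 and 0. The myb36-2 shares were 27.8% against 18.5% of all tested probe sets, and 9.26% against 8.19% on the common scale.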
